A study of Mus musculus with 7 samples.

Results

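Cytochrome P450 genes were read across whole thymus of mice lacking both or 1 copy of RelB, which belongs to the NF-kB family of transcription factors. The members were all probes whose gene symbol in the platform annotation starts with Cyp followed by a digit. This gave 101 probes of 75 genes, out of 25695 probes and 16593 genes with a symbol. The symbol alone decided membership, but the family, and Cyp2a5 within it, were singled out with the genotype difference of these data already known. The genotype values are therefore given as a description, and the calls of the fit over all genes are counted without being read as support.

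Thymi came from 4 RelB+/- and 3 RelB-/- mice, all 8 weeks old, with 1 Illumina array per mouse. The sample titles call the RelB+/- mice wild type, so the control group carries 1 disrupted copy. The sources used here do not say how RelB was disrupted, nor the strain or sex of the mice. In whole tissue, fewer cells of a type and less RNA per cell cannot be told apart.

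Cytochrome P450 enzymes are heme proteins that insert oxygen into lipids, steroids and foreign compounds. Those of the endoplasmic reticulum take electrons from a reductase and from cytochrome b5, and those of mitochondria from a ferredoxin. Many members are known chiefly from liver, lung, olfactory mucosa or adrenal gland, while others serve sterol synthesis or the breakdown of retinoic acid in many tissues. Medullary thymic epithelium is known to transcribe many genes of peripheral organs, which exposes developing T cells to the corresponding self antigens.

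Facts of the arrays as a whole were as follows. Between 45.9% and 49.4% of probes per array had a detection p under 0.05, and median raw intensity ran from 103.5 to 142.3. Arrays correlated at 0.953 to 0.986 across genes. Relb itself had raw intensities of 223, 180, 253 and 308 in RelB+/- mice and of 102, 118 and 121 in RelB-/- mice, where its probe was never detected. Of the thymocyte markers on the array, 8 of 9 were detected and Cd8a was not. Heart muscle markers averaged 11.07 on RelB+/- 2 and 12.87 on RelB-/- 3, against 5.79 to 6.29 on the other arrays (mean normalized log2 intensity of Myl4 and Nppa). The arrays RelB+/- 2 and RelB-/- 3 thus stood apart. Log2 differences of P450 genes that moved by over 1.5 times without them are given both ways. Those of other single genes and of the marker lists were not read without these arrays.

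To show the start regions that go with the results, the 250 bases before the gene start are printed for Cyp2a5, Cyp2e1 and Cyp2f2, the 3 xenobiotic-family genes with the most negative genotype differences. The sequences are from RefSeq on build GRCm38.p6, where 56 of the 75 genes, and 14 of the 17 detected ones, had an entry. Capitals mark TATAAA and the NF-kB consensus. The windows are chr7:26835089-26835338 for Cyp2a5, chr7:140763569-140763818 for Cyp2e1 and chr7:27119705-27119954 for Cyp2f2, each on the plus strand.
Cyp2a5: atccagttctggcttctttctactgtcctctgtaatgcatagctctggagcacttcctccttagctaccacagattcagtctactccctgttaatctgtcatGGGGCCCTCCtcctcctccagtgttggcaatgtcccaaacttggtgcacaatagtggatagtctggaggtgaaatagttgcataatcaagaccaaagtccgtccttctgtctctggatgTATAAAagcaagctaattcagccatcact
Cyp2e1: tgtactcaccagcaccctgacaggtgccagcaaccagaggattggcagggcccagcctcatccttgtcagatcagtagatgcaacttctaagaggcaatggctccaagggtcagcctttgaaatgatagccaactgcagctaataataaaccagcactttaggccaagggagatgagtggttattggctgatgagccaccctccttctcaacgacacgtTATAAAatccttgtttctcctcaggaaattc
Cyp2f2: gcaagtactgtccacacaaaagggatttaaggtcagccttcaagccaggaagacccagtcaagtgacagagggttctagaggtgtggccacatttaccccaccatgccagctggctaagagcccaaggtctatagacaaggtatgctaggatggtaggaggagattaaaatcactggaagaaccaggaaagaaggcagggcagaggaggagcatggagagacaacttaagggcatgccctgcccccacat

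Both strands of these windows were searched for TATAAA, for the CCAAT box, for GCGTG (the core bound by the aryl hydrocarbon receptor), for TTGCNNAA (a site of the C/EBP type) and for the NF-kB consensus, and matches of different motifs could overlap. Position -1 is the last base before the gene start. Cyp2a5 had TATAAA from -29, TTGCATAA from -71 and the NF-kB match GGGGCCCTCC from -148. Cyp2e1 had TATAAA from -31 and CCAAT on the minus strand from -68 and -210. The Cyp2f2 window held none of these letters, which says nothing of the factors themselves. The 56 genes had 63 windows, as 5 genes have more than 1 in the table. Across these windows, TATAAA was present in 34.9% and TTGCNNAA in 27%, against 12.4% and 9.56% of all 32851 windows. For the other motifs the shares were 7.94% against 7.25% for the NF-kB consensus, 41.3% against 33.8% for CCAAT and 20.6% against 28.2% for GCGTG. Among the 14 windows of detected genes, the NF-kB consensus matched in 3, those of Cyp2a5, Cyp1b1 and Cyp26b1.

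Most of the family was not detected in thymus of either genotype. Kept genes, those with a probe whose detection p was below 0.05 on 3 or more of the 7 arrays, numbered 17 of 75 (22.7%), against 8844 of 16593 genes (53.3%) on the whole array. Of the others, 44 genes had no probe detected on any array and 14 had a probe detected on 1 or 2 arrays. Raw signals of the 78 probes not kept lay between 80.8 and 159.2. The array as a whole holds genes of every expression pattern, and no test was made of the difference in shares.

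Families 1 to 3 are counted here without Cyp2r1, which was on no array and was placed in the bile acid, vitamin D and cholesterol group. So counted, they made up 44 of the 75 members and 31 of the 44 genes on no array. In families 1 to 3, whose enzymes oxidise foreign compounds, 7 of 44 genes were kept and 31 were on no array. These included Cyp1a1 and Cyp1a2, which aryl hydrocarbon receptor ligands induce, and most genes of the Cyp2c, Cyp2d and Cyp3a subfamilies. In family 4, whose members hydroxylate fatty acids and eicosanoids, 5 of 13 genes were kept. Kept genes numbered 2 of 6 in steroid and sterol synthesis, 2 of 9 in the bile acid, vitamin D and cholesterol group, and 1 of 2 in retinoic acid breakdown. Cyp20a1, placed in no role, was on no array. The adrenal steroid genes Cyp17a1 and Cyp21a1 were on no array, Cyp11a1, the first enzyme of steroid synthesis, was detected on 1 array of each genotype, and Cyp11b1 on 1 RelB+/- array.

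**Figure D1:**
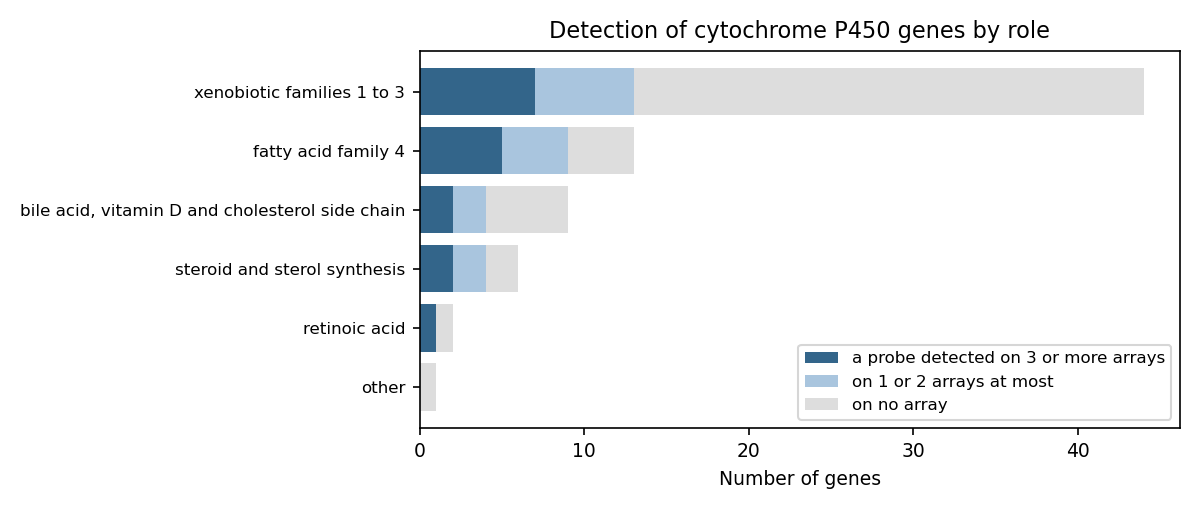
Number of cytochrome P450 genes (x axis) in each role group (y axis), split by the largest number of arrays on which a probe of the gene was detected. Families 1 to 3, counted without Cyp2r1, hold 44 genes, of which 31 were detected on no array.

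Detections on a single array were not spread evenly. The number of P450 genes with a detected probe came to 18, 15, 17 and 16 in RelB+/- mice 1 to 4, and to 23, 17 and 17 in RelB-/- mice 1 to 3. RelB-/- 1 was highest, although it had the lowest share of detected probes on the array as a whole (45.9%). It alone detected 8 probes, and 6 genes were detected on it and on no other array. No other array alone detected more than 2 probes or 2 genes. No gene without a kept probe was detected on 2 arrays of one genotype and none of the other.

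Cyp2a5 encodes a mouse P450 known for coumarin hydroxylation in liver and olfactory mucosa. Its probe ILMN_3159131 had raw intensities of 225, 166, 227 and 308 in RelB+/- mice 1 to 4, and of 104, 140 and 154 in RelB-/- mice 1 to 3. The RelB-/- arrays were all below the RelB+/- arrays, and every array but RelB-/- 1 detected the probe. After normalization the log2 intensities were 7.02, 6.91, 6.84 and 7.15 against 4.72, 5.16 and 5.21. The means were 6.98 ± 0.14 (SD, n = 4) and 5.03 ± 0.27 (SD, n = 3), a log2 difference, RelB-/- minus RelB+/-, of -1.95 (SE 0.17), or 3.86-fold lower. It was the 22nd most negative difference of 9569 genes.

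No other probe of Cyp2a5 had a difference of this size. ILMN_2734598, kept by the filter, had log2 intensities of 4.62, 5.67, 5.10 and 4.70 in RelB+/- and 5.03, 5.02 and 4.52 in RelB-/- thymus. These overlapped, with a log2 difference of -0.16 (SE 0.27) and 2 arrays of each genotype detected. ILMN_1229267 and ILMN_3079804 were detected on 0 of 7 arrays, with raw intensities between 88.8 and 131 and log2 differences of -0.25 and 0.03. After normalization the values of ILMN_1229267 did not overlap between genotypes, at 4.48 to 4.81 in RelB+/- and 4.32 to 4.38 in RelB-/- mice, but these are signals not above background. The annotation gives the same transcript for all 4 probes, and why they differ was not tested. Cyp2a4, a close paralog of Cyp2a5, has no probe among the members, and whether ILMN_3159131 also binds its transcript was not tested.

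**Figure D2:**
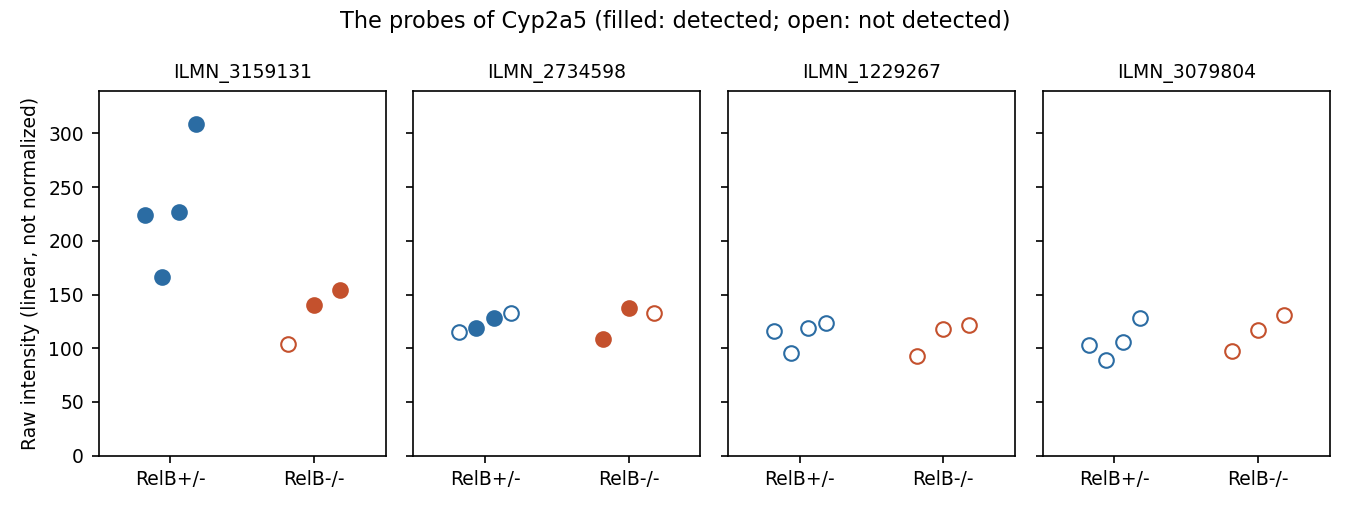
Raw intensity on a linear axis for each of the 4 probes of Cyp2a5, with 1 point per array, RelB+/- in blue and RelB-/- in red. ILMN_3159131 lies between 166 and 308 in RelB+/- and between 104 and 154 in RelB-/- thymus, while the genotypes overlap for the other probes.

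The size of the Cyp2a5 difference varied with the setting. It was -1.27 with a background offset of 50, -0.80 without background correction and -0.50 in the authors' processed values, whose transformation is not stated, and -1.06 when the kept probes were averaged. With each array left out in turn it ran from -2.03 to -1.83, and without RelB+/- 2 and RelB-/- 3 it was -2.10.

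Markers of other cells were read beside Cyp2a5. The 7 tested medullary epithelial markers all had negative differences, with a median of -1.68 and 4 called lower (Aire, Fezf2, Krt14 and Ccl21a). Over all genes the fit called 0.669% lower, and the lists were chosen with earlier results of these data known. Aire, which drives transcription of peripheral genes in these cells, and Fezf2, which does so for other genes, were each detected in all 4 RelB+/- mice and in 0 of the 3 RelB-/- mice. Both thus passed the detection filter through RelB+/- arrays alone. The mean of the list ran from 8.02 to 8.33 on RelB+/- and from 6.46 to 6.77 on RelB-/- arrays, and the part of these cells in the Cyp2a5 difference was not tested. Of 5 tested dendritic cell markers 2 were called lower, Fscn1 (-1.83) and the chemokine gene Ccl17 (-1.37), with a median of 0.02 over the list. The mean of the 5 ran from 6.02 to 6.36 in RelB+/- and from 5.53 to 5.79 in RelB-/- mice without overlap. The other 3 of the 5 had positive differences, the largest 0.22. Itgax was on no array, and the part of dendritic cells was not tested either. Of 10 hepatocyte markers 7 were on no array, among them the liver proteins Alb and Ttr. Apoa1, an apolipoprotein of liver and gut, was detected in 3 of the 4 RelB+/- mice and in 0 of the 3 RelB-/- mice. It thus passed the filter through RelB+/- arrays alone. The 2 tested hepatocyte markers had log2 differences of -0.59 and -0.44, neither called. Their mean was low and overlapped between genotypes, at 4.72 to 5.56 in RelB+/- and 4.44 to 4.85 in RelB-/- mice.

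Cyp2a5 lies in a chromosome 7 array of related genes. RefSeq places 10 P450 genes of the array together there, in the order Cyp2s1, Cyp2b10, Cyp2b13, Cyp2b9, Cyp2b23, Cyp2b19, Cyp2g1, Cyp2a5, Cyp2a12 and Cyp2f2. Only Cyp2s1, Cyp2a5 and Cyp2f2 of these had a kept probe, with log2 differences of -0.21, -1.95 and -0.74. Relb is on chromosome 7 as well, with 189 protein-coding genes between it and Cyp2s1. Called lower were 8 of the 706 other tested genes of this chromosome (1.13%), Cyp2a5 among them. The share was 0.652% of 8133 on the other placed chromosomes, with 1.33% on chromosome 14 and 0 on chromosome 13. Whether chromosome segments linked to the disrupted allele differ between the genotypes was not tested.

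Cyp2f2 is known for oxidising naphthalene in mouse airway epithelium. Its log2 intensities were 5.88, 5.26, 6.24 and 5.81 on RelB+/- and 5.47, 4.76 and 4.95 on RelB-/- arrays. The groups overlapped, since RelB-/- 1 exceeded RelB+/- 2, and detection was 4 of 4 against 2 of 3. The log2 difference was -0.74 (SE 0.26), or -0.14 in the authors' processed values. Of 7 airway markers, Scgb3a1, Sftpc and Reg3g were on no array, and Scgb1a1, the secretory protein of club cells, was detected on 1 array of each genotype. Only 1 airway marker passed the detection filter, with a log2 difference of 0.08.

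Cyp2e1, an ethanol-inducible enzyme of liver and fat, had the most negative log2 difference of the family, with a wide spread. Its log2 intensities were 7.63, 9.51, 10.15 and 10.39 on RelB+/- and 5.65, 6.50 and 8.74 on RelB-/- arrays. The groups overlapped, because RelB+/- 1 was below RelB-/- 3. The means were 9.42 ± 1.25 (SD, n = 4) and 6.96 ± 1.60 (SD, n = 3), a log2 difference of -2.46 (SE 0.83). In RelB+/- thymus 0.533% of all tested genes had a wider range. Leaving out RelB-/- 1 gave -1.79 and leaving out RelB-/- 3 gave -3.34. Without both RelB+/- 2 and RelB-/- 3 it was -3.33.

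Adipocyte markers were read beside Cyp2e1. The 7 tested markers averaged 7.91, 9.19, 8.26 and 9.01 in RelB+/- mice 1 to 4, and 6.88, 6.91 and 9.55 in RelB-/- mice 1 to 3. Both were lowest on array 1 of each genotype and highest among RelB-/- arrays on RelB-/- 3. Array numbers follow chip position, 1, 3, 5 and 7 for RelB+/- and 2, 4 and 6 for RelB-/- arrays. Cyp2e1 rose with chip position within each genotype. With chip position as a covariate the genotype difference was -2.46 as before, and the fit then called Cyp2e1 lower. The effect of position itself on Cyp2e1 was not tested. RelB-/- 3 had the highest adipocyte mean of all 7 arrays but a Cyp2e1 level below RelB+/- 2, 3 and 4, and the order of RelB+/- 2, 3 and 4 differed between the marker mean and Cyp2e1. All 7 markers had negative genotype differences, none called, with a median of -0.66. Retn and Fabp4 were on no array. The part of fat in the Cyp2e1 difference was not tested.

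Cyp2s1, an epithelial P450, varied as widely as Cyp2e1 among RelB+/- arrays, but less among RelB-/- arrays. Its log2 intensities were 5.24, 5.39, 6.31 and 8.03 on RelB+/- and 5.22, 5.99 and 6.90 on RelB-/- arrays, with RelB+/- 4 the highest. The log2 difference of -0.21 (SE 0.67) became 0.38 without RelB+/- 4, 0.21 without RelB-/- 1, -0.64 without RelB-/- 3 and -0.93 without RelB+/- 2 and RelB-/- 3. The mean of 6 tested fibroblast markers, chosen for this comparison after its values were seen, was 6.63, 6.87, 7.10 and 8.25 on RelB+/- and 6.40, 6.64 and 7.62 on RelB-/- arrays, the same order of arrays in each genotype. Both rose with array number, which is also the order of chip position. With chip position as a covariate the Cyp2s1 difference was -0.21 as before and was not called. The effects of fibroblasts and of position itself on the spread were not tested.

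The remaining kept genes of families 1 to 3 differed little between genotypes. Cyp2d22, the mouse relative of human CYP2D6, had a log2 difference of -0.04 (SE 0.31). Cyp1b1, which oxidises estrogens and retinoids and is known from mesenchymal cells, had 0.16 (SE 0.28), and Cyp2j9, of an arachidonate-oxidising subfamily, had 0.07 (SE 0.25). The signs of these 3 changed when single arrays were left out, of Cyp2d22 without RelB+/- 4 (0.20), RelB-/- 2 (0.12) or RelB-/- 1 (0.03), Cyp1b1 without RelB-/- 2 (-0.05) and Cyp2j9 without RelB-/- 2 (-0.07), RelB+/- 1 (-0.06) or RelB+/- 3 (-0.03). Without both RelB+/- 2 and RelB-/- 3 they were -0.35 for Cyp2d22, 0.05 for Cyp1b1 and 0.41 for Cyp2j9.

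**Figure D3:**
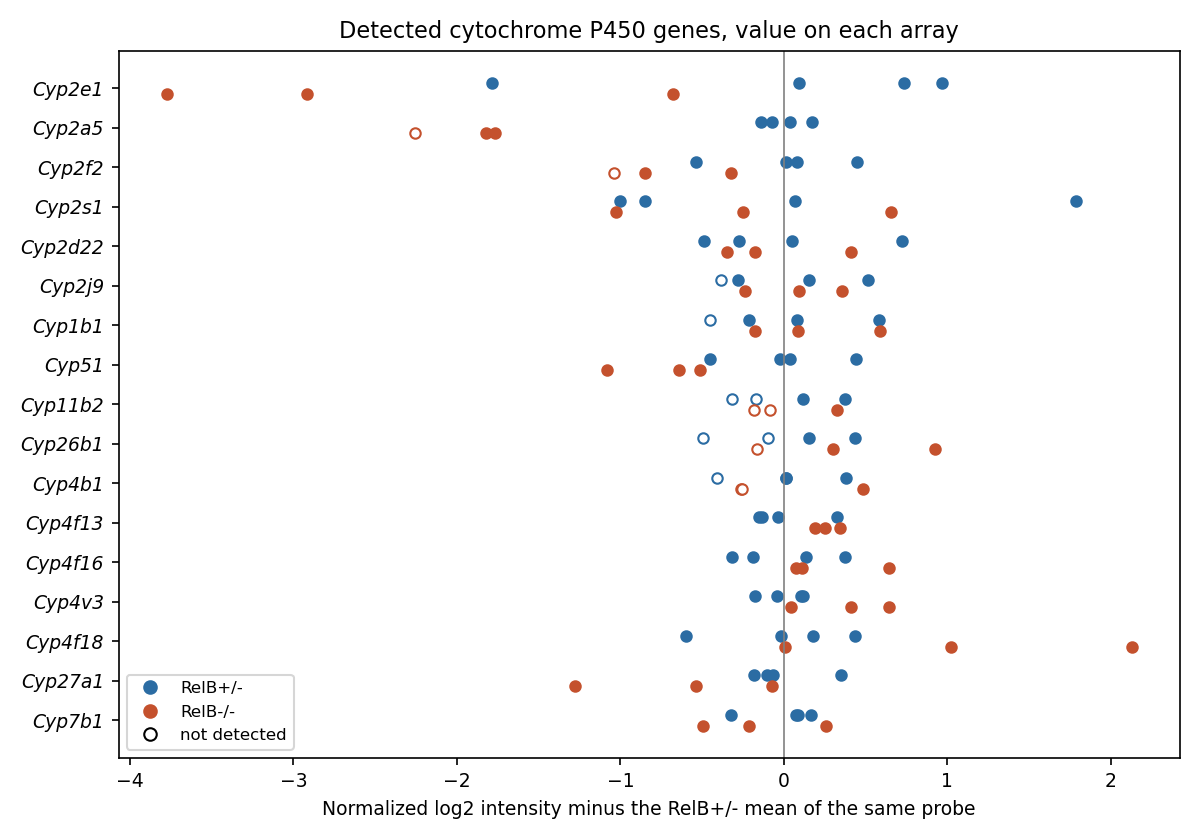
Normalized log2 intensity of each array minus the RelB+/- mean of the same probe (x axis) for the 17 detected cytochrome P450 genes, grouped by role, with RelB+/- in blue, RelB-/- in red and open points where the probe was not detected. The genotypes do not overlap for Cyp2a5 and Cyp51, 11.8% of the 17 genes, against 13.6% of all genes tested.

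Family 4 genes had mostly positive differences, 4 of 5, with none called and a median of 0.27. Cyp4f18 inactivates leukotriene B in mouse neutrophils. Its log2 intensities were 7.70, 7.90, 7.12 and 8.15 on RelB+/- and 8.74, 7.72 and 9.85 on RelB-/- arrays by ILMN_2770066. The groups overlapped, because RelB-/- 2 was within the RelB+/- range, and RelB-/- 3 was the highest. The log2 difference was 1.05 (SE 0.46), and 0.81 (SE 0.41) by its other kept probe. It was 0.52 without RelB-/- 3, 1.56 without RelB-/- 2, and 0.58 without both RelB+/- 2 and RelB-/- 3.

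Granulocyte markers were read beside Cyp4f18. The 11 tested markers averaged 5.94, 7.50, 5.50 and 6.47 in RelB+/- mice, and 7.80, 8.62 and 9.48 in RelB-/- mice. All 11 had positive differences, with a median of 2.41, and 2 were called higher, where the fit called 0.105% of all genes higher. RelB-/- 3 was highest and RelB+/- 3 lowest in both, while RelB-/- 2, second for the markers, was lowest of its genotype for Cyp4f18. Their part in the Cyp4f18 difference was not tested.

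**Figure D4:**
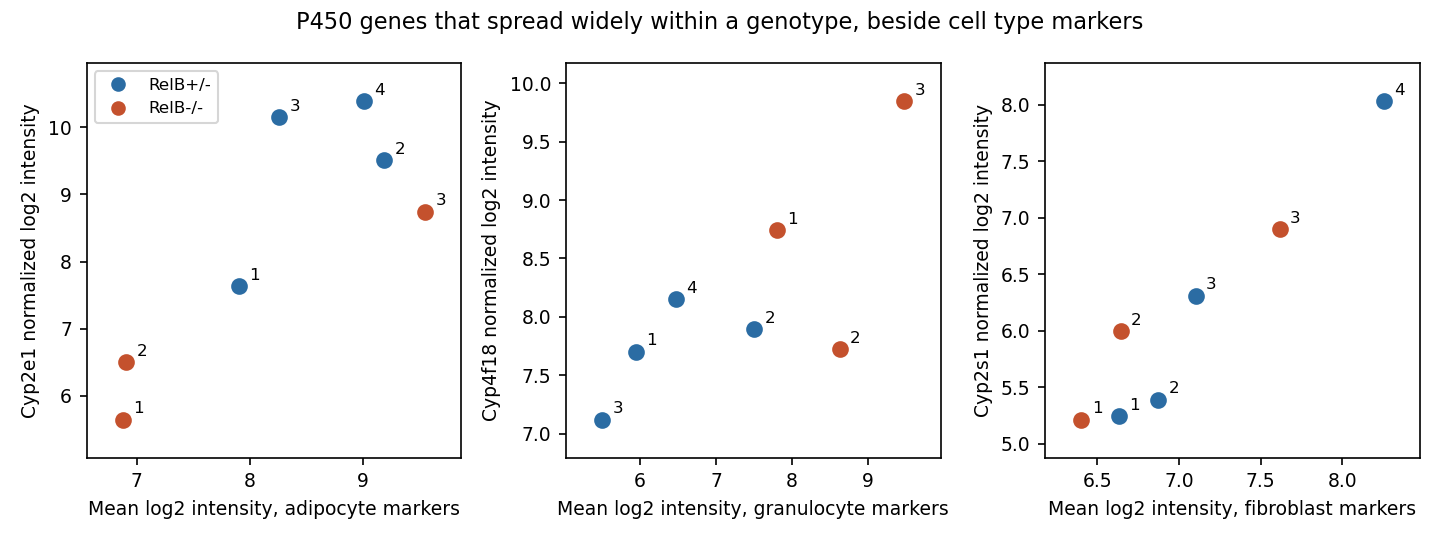
Normalized log2 intensity of Cyp2e1, Cyp4f18 and Cyp2s1 (y axes) against the mean log2 intensity of adipocyte, granulocyte and fibroblast markers (x axes), with 1 point per array labelled by its number, RelB+/- in blue and RelB-/- in red. Cyp2e1 runs from 5.65 to 10.39 and is lowest on RelB-/- 1 and 2, where the adipocyte mean is 6.88 and 6.91. Array numbers follow chip position within each genotype.

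The other family 4 genes had smaller differences. Cyp4v3, the mouse counterpart of a human fatty acid hydroxylase linked to a retinal dystrophy, read 7.45, 7.29, 7.16 and 7.43 on RelB+/- and 7.37, 7.74 and 7.97 on RelB-/- arrays. These overlapped at RelB-/- 1, and the log2 difference was 0.36 (SE 0.17), or 0.22 without RelB-/- 3 and 0.21 without both RelB+/- 2 and RelB-/- 3. Cyp4f13 had 0.26 (SE 0.16), and Cyp4f16 had 0.27 (SE 0.22) by its representative probe and -0.08 and 0.20 by its other kept probes. The Cyp4f16 difference was 0.09 without RelB-/- 1. Cyp4b1, known from lung and for activating plant furans, had -0.01 (SE 0.25). It ran from -0.25 to 0.12 with single arrays left out and was -0.41 without both RelB+/- 2 and RelB-/- 3. It was detected in 3 RelB+/- mice and 1 RelB-/- mouse.

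Cyp51 was the kept steroid and sterol gene without overlap between genotypes, as were 13.6% of all genes tested, 6.25% lower. It encodes the lanosterol demethylase, a step of cholesterol synthesis that all cells making sterols use. Its log2 intensities were 6.95, 7.38, 7.84 and 7.44 on RelB+/- and 6.32, 6.76 and 6.89 on RelB-/- arrays, so every RelB-/- array was below every RelB+/- array. RelB-/- 3 (6.89) and RelB+/- 1 (6.95) lay closest. The log2 difference was -0.75 (SE 0.23), -0.30 in the authors' processed values, and the fit did not call it. Cyp11b2, the aldosterone synthase of adrenal cortex, was near the detection limit, on 2 of 4 RelB+/- and 1 of 3 RelB-/- arrays, with a log2 difference of 0.02 (SE 0.21), which ran from -0.09 to 0.12 over the left-out arrays that kept it. Its second probe was on no array, and no adrenal marker passed the detection filter.

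Sterol side-chain and retinoid enzymes overlapped between genotypes. Cyp27a1, a mitochondrial sterol hydroxylase of bile acid synthesis that macrophages also carry, read 7.58, 7.55, 7.47 and 8.00 on RelB+/- and 6.37, 7.11 and 7.57 on RelB-/- arrays. RelB-/- 1 and 2 were below every RelB+/- array, and RelB-/- 3 (7.57) lay within the RelB+/- range, near its lower end. The log2 difference was -0.63 (SE 0.28), against -0.28 and -0.27 by its other probes, -0.30 without RelB-/- 1, and -0.95 without both RelB+/- 2 and RelB-/- 3. Cyp7b1, which hydroxylates oxysterols, had -0.15 (SE 0.21), which was 0.02 without RelB-/- 3, -0.35 without RelB-/- 2, -0.26 without RelB+/- 3 and 0.08 without both RelB+/- 2 and RelB-/- 3. Cyp27b1 and Cyp24a1, which activate and degrade vitamin D, and Cyp7a1, the first enzyme of bile acid synthesis, were on no array. Cyp26b1, which degrades retinoic acid, had 0.35 (SE 0.29), or 0.07 without RelB-/- 1, 0.18 without RelB+/- 4 and 0.62 without RelB-/- 2. It was near the detection limit, detected on 2 RelB+/- and 2 RelB-/- arrays, with raw intensities from 105 to 157. Cyp26a1 was on no array.

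Over the 17 genes, 9 had negative and 8 positive log2 differences, with a median of -0.01 against 0.03 over all 9569 genes tested. With limma and Benjamini-Hochberg adjustment over all genes, 1 of the 17 was called lower (Cyp2a5) and 0 higher, where the fit called 0.669% of all genes lower and 0.105% higher. At an unadjusted p under 0.05 there were 4 lower and 1 higher, against 6.3% and 6.88% of all genes. The arrays of the genotypes did not overlap for 2 of the 17 genes (11.8%), both lower, against 13.6% of all genes, 6.25% lower and 7.38% higher. The family was singled out with this contrast known, so nothing is read from these counts.

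**Figure D5:**
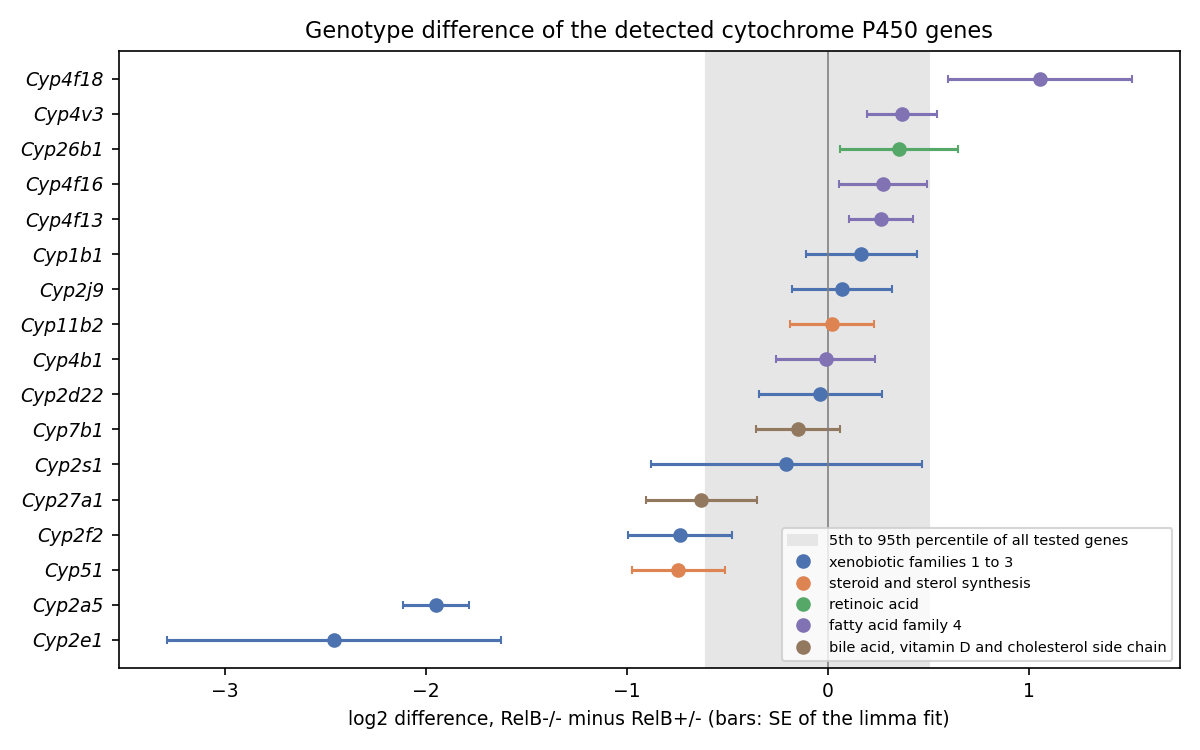
Log2 difference, RelB-/- minus RelB+/-, with the SE of the limma fit, for the 17 detected cytochrome P450 genes in order of size, coloured by role, over the range from the 5th to the 95th percentile of all tested genes (-0.61 to 0.50, grey). Cyp2e1 (-2.46) and Cyp2a5 (-1.95) lie farthest to the left and Cyp4f18 (1.05) farthest to the right.

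Genes that work with the P450 enzymes had no called member. Of the electron donors, 5 of 8 on the array were tested, 4 with negative differences, and the median was -0.16. The cytochrome b5 reductases Cyb5r4 (-0.26, SE 0.14) and Cyb5r3 (-0.17, SE 0.23) had the largest. Of receptors and factors that control P450 genes, together with genes they induce, 15 of 28 were tested, 7 with negative and 8 with positive differences, and the median was 0.00. Nqo1, a quinone reductase induced along with P450 genes, had -0.92 (SE 0.34), and Pparg, the adipocyte nuclear receptor, had -0.71 (SE 0.49). The aryl hydrocarbon receptor gene Ahr and the xenobiotic receptors Nr1i2 and Nr1i3 were on no array.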

How the data were processed

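Whole thymus RNA of 7 mice was measured on Illumina arrays. Per the labels, biotin-labelled cRNA was made from total RNA. Raw intensity values were deposited on a linear scale without normalization, each with a detection p-value, per the file headers. The submitters' processing notes list GenomeStudio, and its version and settings are not given in the sources used here. The authors also deposited processed log2 values, whose exact transformation is not stated. The number of columns of per-sample values left out was 0.

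Background was corrected by normexp from the detection p-values (limma 3.58.1, R 4.3.3, offset 16), followed by quantile normalization and log2. Of 25695 probes 23976 had 1 gene symbol, 1719 none and 0 several. All 101 P450 probes matched the RefSeq gene table of GRCm38.p6, and 0 symbols changed. That table gave names, chromosomes and gene order, since the files name no build. Probes were kept where the detection p fell below 0.05 on 3 or more arrays, and the kept probe with the highest mean stood for its gene (9569 genes). The genotypes were compared with limma (lmFit and eBayes, 2-sided, all 7 arrays), with Benjamini-Hochberg adjustment over all genes and calls at 0.05. The code was tested on simulated data.

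Named genes were all kept P450 genes and all Cyp2a5 probes, Relb and, in the lists of other enzymes and regulators, called members or else the 2 with the largest difference. Markers of other cells are given as list levels, and single markers are named where a defining one is at issue. Members and lists were chosen with earlier results of these data known. The labels do not say that replicates share litters or days. Precision is limited by there being 7 arrays, and offsets shrink differences of dim probes. Figures were drawn with matplotlib 3.10.9.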

Additional observations from a re-analysis of the deposited data

How the results depend on the processing

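Across 20 alternatives, Cyp2a5 was called lower in each, with log2 differences from -2.10 to -0.50, and no P450 gene was called higher. All but the average of kept probes read Cyp2a5 from ILMN_3159131 alone. Its other kept probe was not called where every kept probe was fitted. The alternatives reuse the arrays with which the gene was singled out, so the repeated calls are not support. With chip position as a covariate 2 P450 genes were called lower, Cyp2a5 and Cyp2e1 (-2.46). Among the 16 other P450 genes, 309 of 314 values moved by less than the spread between replicates and stayed uncalled. Another 4 moved by more, and 1 was the new call of Cyp2e1. The detection filter settings, the robust trend, the fit of every kept probe and chip position gave these genes the values of the main fit. Chip position averaged the same in both genotypes. Such settings could change only the calls, so the count of unmoved values overstates steadiness. Of the 16 genes, 7 changed sign in at least 1 alternative, and the median of the family ran from -0.15 to 0.12. Without a detection filter 75 P450 genes were tested. Counts over all genes, 64 lower and 10 higher, were less steady. They were 23 and 2 with the authors' processed values, 23 and 1 with the replicate block, and 32 and 6 without RelB+/- 2 and RelB-/- 3. They were 92 and 15 with chip position and 78 and 11 with a robust intensity trend. The higher count was 6 both without background correction and without a detection filter. With single arrays left out they ran from 34 to 65 lower and from 4 to 7 higher. The lower count was 34 without RelB-/- 1 and 42 without RelB+/- 1. The higher count was 6 without RelB-/- 1, 4 without RelB+/- 3 and 5 without RelB-/- 3. The cause was not tested. Same-numbered arrays deviated together for number 1 (correlation across genes 0.32) but not for 2 and 3 (-0.18 and -0.20), so the numbers were not taken as pairs. With the replicate block Cyp2a5 was -1.89. Quantile against median scaling moved the median of all genes from 0.03 to -0.02.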

Other observations

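Enzymes that act beside the P450 family, also from lists chosen with earlier results known, had no called member. Of 16 tested genes for conjugation and other oxidation steps, 13 had negative differences, with a median of -0.36 against 0.03 over all genes. Gsta3, a glutathione transferase, had -1.46 (SE 0.59), and Fmo1, a flavin monooxygenase, had -0.76 (SE 0.37). The tested genes averaged 7.83, 8.16, 8.14 and 8.52 in RelB+/- mice 1 to 4, and 7.45, 7.56 and 8.43 in RelB-/- mice 1 to 3, so RelB-/- 3 lay within the RelB+/- range. RelB-/- 3 also had the highest adipocyte mean (9.55).

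Eicosanoid enzymes, including P450-type enzymes that the symbol rule does not take in, were split, with 3 of 7 tested genes negative and a median of 0.05. Tbxas1, the thromboxane synthase, had 0.60 (SE 0.26), and Ptges, a prostaglandin E synthase, had -0.59 (SE 0.29). In the adrenal type steroid list 2 of 10 genes on the array were tested, Hsd3b2 (0.42, SE 0.16) and Hsd11b1, which regenerates active glucocorticoid (0.09, SE 0.16).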
